A study of Mus musculus with 8 samples.

Results

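Nlrp2, Nlrp4a, Nlrp4b, Nlrp4f, Nlrp9a, Nlrp9b and Nlrp14 are 7 of the 24921 genes of the table of transcript levels. They were chosen by symbol as Nlrp genes that mouse oocytes are known to express, with earlier results of these data known. The choice is not complete, and Nlrp4e, Nlrp4g, Nlrp5 and Nlrp9c are described further below. Each gene's level is the sum over the transcript entries whose RefSeq accession belongs to its symbol, which gave 11 entries for the 7 genes. All 7 passed the filter on low values used for the tests, a level of 1 FPKM or more in 2 libraries. FPKM counts sequenced fragments relative to transcript length and to the size of the library, so levels of different genes can be compared.

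Smart-seq libraries, in which full-length cDNA is amplified from very little RNA, had been made from total RNA of whole mouse embryos and sequenced on a BGISEQ500 machine. The 8 libraries form 4 groups of 2, named CX45, CX22, 8C and 2C in the labels, and all are from strain C57BL/6 with the same passage label. The series title asks about RNA polymerase I transcription and the folding of chromatin in early embryos. No label spells out the CX names, gives an agent, a dose, a time or the number of embryos in a library, or names a control, so all 6 pairs of groups were compared.

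Proteins of the NLRP family carry a pyrin domain, a nucleotide-binding NACHT domain and leucine-rich repeats. Some members, such as NLRP3, act in immune cells as sensors that assemble inflammasomes, the platforms that activate caspase-1. In rodents a branch of the family has expanded by gene duplication and is transcribed mainly in oocytes. Oocyte transcripts are stored, serve the embryo until its own genome is switched on, and are then largely degraded. In mice, Nlrp2 is a maternal-effect gene, Nlrp4f belongs to the subcortical maternal complex under the egg membrane, and embryos of mothers without Nlrp14 arrest early. Mouse Nlrp9b is known as well as a sensor of viral RNA in the gut epithelium.

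Steps between the low FPKM values gave an implied depth of 9700000 to 12800000 fragments in the CX45, CX22 and 2C libraries and of 17800000 and 20200000 fragments in 8C. At these depths 3 fragments on a transcript of 3 kb are worth 0.0496 to 0.103 FPKM, which is about the limit of detection and covers counting error only. The 2C libraries differed by close to sampling noise, with a median chi-square of 1.19 times that of chance, against 47.2 times in CX45, 106 times in CX22 and 32.2 times in 8C. They were therefore averaged and counted as 1 sample. Every p-value against 2C thus sets a single 2C sample against 2 libraries and takes its spread from the other groups. The CX22 libraries were the least alike, and 333 genes were above 10 FPKM in one of them and listed at 0 in the other. Nothing in the labels says that the libraries of a group came from separate embryo pools, so a p-value reflects the spread among these libraries alone, which may be technical. Markers of the 8-cell stage and later summed to 950 and 1226 FPKM in CX45, 77.1 and 67.4 FPKM in CX22, 1351 and 1701 FPKM in 8C, and 69.9 and 72.1 FPKM in 2C. Most of each sum was Dppa2 and Dppa4. Nanog had 6.53 and 4.54 FPKM in CX45 against 20.3 and 18.2 FPKM in 8C. Over the 8 of these markers tested, the median log2 fold change in CX45 against 8C was -1.10. The sum of the oocyte markers ran the other way, with 133 and 163 FPKM in CX45, 1921 and 2522 FPKM in CX22, 24.9 and 28.3 FPKM in 8C, and 2607 and 2593 FPKM in 2C. Most of it in CX22 and 2C was Oosp1 and Bmp15. Of the 6 oocyte markers tested, 4 fell in 8C against 2C, where 20.7% of all genes tested fell. Zp3 did not follow, with 54.3 and 29.5 FPKM in CX45, 13.3 and 13.4 FPKM in 8C, and 14.7 and 15.5 FPKM in 2C.

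The 7 Nlrp genes together had 29.1 and 50.4 FPKM in CX45, 311 and 592 FPKM in CX22, 12.2 and 7.21 FPKM in 8C, and 363 and 361 FPKM in 2C. The sums thus fell into a high pair of groups, CX22 and 2C, and a low pair, CX45 and 8C. Within the low pair both CX45 libraries were above both 8C libraries. Since whole embryos were sequenced, fewer cells holding a transcript and less transcript per cell cannot be told apart.

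**Figure D1:**
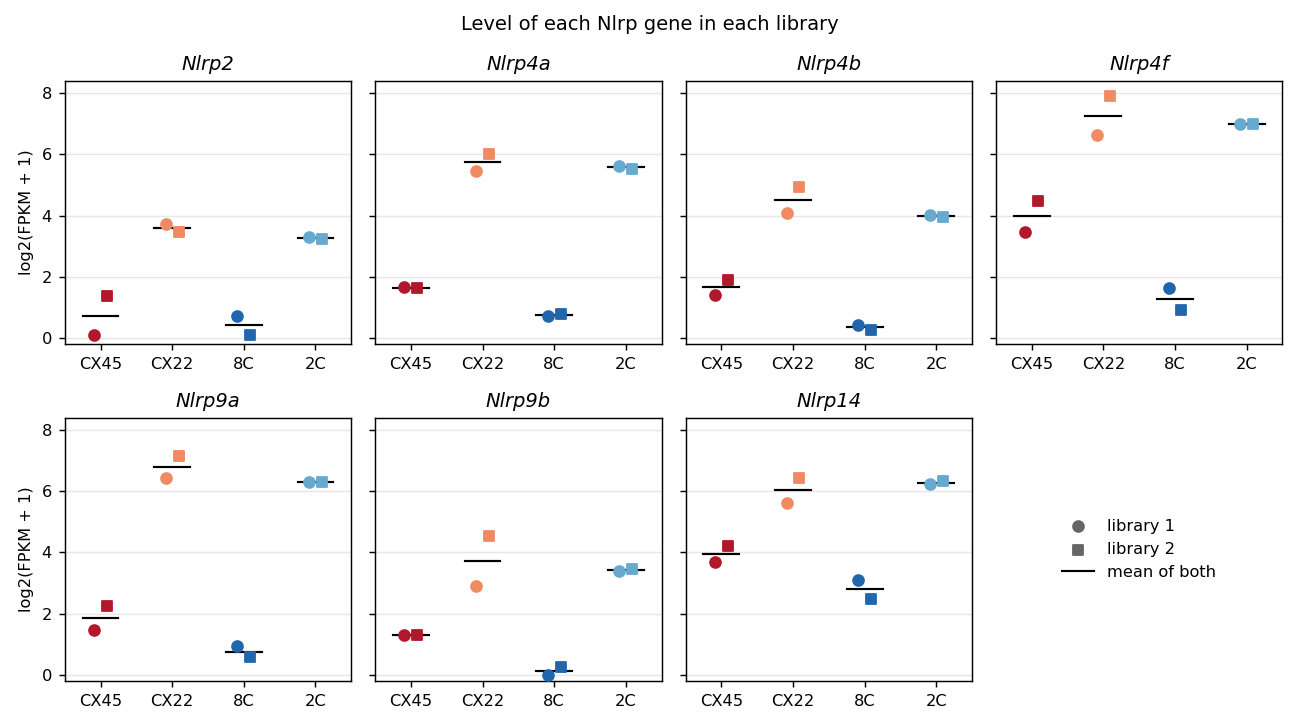
Level of each Nlrp gene in each library as log2(FPKM + 1), with CX45, CX22, 8C and 2C from left to right, circles for library 1, squares for library 2 and a bar for the mean of both on this scale. In each panel the CX22 and 2C points lie above all CX45 and 8C points, and Nlrp4f shows the widest gap between CX45 and 8C.

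Nlrp4f was the most abundant of the 7 genes in 2C. It is the one member on chromosome 13, at chr13:65278419-65307024 in build mm9, with a single transcript entry. Its level was 10.1 and 21.5 FPKM in CX45, 97.9 and 240 FPKM in CX22, 2.09 and 0.908 FPKM in 8C, and 128 and 127 FPKM in 2C. Both CX45 libraries lay above both 8C libraries and below all CX22 and 2C libraries. The mean was 15.8 ± 8.01 FPKM in CX45, 169 ± 100 FPKM in CX22 and 1.5 ± 0.839 FPKM in 8C (SD, n = 2 each), against 127 FPKM in 2C. In 8C the log2 fold change from 2C was -5.72 ± 0.76 (SE, limma adjusted p = 0.00752), on the log2(FPKM + 1) scale used throughout, which understates the change of low genes. In CX45 it was -3.02 ± 0.76 against 2C (adjusted p = 0.043), and CX45 was at 12.4% of the 2C mean where 8C was at 1.18%.

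Nlrp4a, a close relative on chromosome 7, stood at 2.17 and 2.11 FPKM in CX45 and 43.5 and 63.4 FPKM in CX22. It had 0.648 and 0.725 FPKM in 8C, against 48.6 and 45.5 FPKM in 2C, and the CX22 libraries lay on either side of the 2C ones. Neither low group overlapped with a high one, and the libraries within each low group were closely alike. The fall in 8C against 2C was -4.83 ± 0.42 on the log2 scale (adjusted p = 0.00314), and that in CX45 against CX22 was -4.09 ± 0.34 (adjusted p = 0.00433).

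Nlrp4b, lower in 2C than Nlrp4f and Nlrp4a, had 1.68 and 2.72 FPKM in CX45, 16.0 and 29.6 FPKM in CX22, 0.34 and 0.211 FPKM in 8C, and 15.1 and 14.5 FPKM in 2C. Its CX45 mean of 2.2 ± 0.734 FPKM (SD, n = 2) was 14.9% of the 2C mean, while its 8C mean of 0.275 ± 0.0913 FPKM was 1.86% of it. The 8C values stand for an implied 20.1 and 13.9 fragments. The gene fell by 3.63 ± 0.57 on the log2 scale in 8C against 2C (adjusted p = 0.0113) and fell by 2.32 ± 0.57 in CX45 against 2C (adjusted p = 0.0415).

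Nlrp9a and Nlrp9b are close relatives, and their longest reading frames were 84.2% identical over the aligned bases, beside 87.7% for Nlrp9a and Nlrp9c. Nlrp9a had 1.74 and 3.74 FPKM in CX45, 86.1 and 142 FPKM in CX22, 0.925 and 0.49 FPKM in 8C, and 77.8 and 77 FPKM in 2C. Of the 7 genes it had the lowest share of its 2C level left in CX45, at 3.54%, and in 8C, at 0.914%. It fell by 5.53 ± 0.55 on the log2 scale in 8C against 2C (adjusted p = 0.00393) and fell by 4.95 ± 0.45 in CX45 against CX22 (adjusted p = 0.00475).

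Nlrp9b was lower throughout, with 1.49 and 1.48 FPKM in CX45, 6.48 and 22.3 FPKM in CX22, 0 and 0.192 FPKM in 8C, and 9.53 and 9.89 FPKM in 2C. The CX45 libraries agreed closely at an implied 55 and 62.9 fragments, while one 8C library had none and the other an implied 12.9. Its CX22 libraries differed by 3.44-fold, the widest gap of the 7 genes in that group. It fell by 3.29 ± 0.79 on the log2 scale in 8C against 2C (adjusted p = 0.0325). The CX45 value against 2C was -2.11 ± 0.79 and did not pass (adjusted p = 0.108).

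Nlrp2 was the least abundant member in 2C. It had 0.08 and 1.57 FPKM in CX45, 12.3 and 10 FPKM in CX22, 0.658 and 0.0724 FPKM in 8C, and 8.8 and 8.35 FPKM in 2C. This was the one gene whose CX45 and 8C libraries overlapped, and one library of each of these groups was near the limit of detection, at an implied 3 fragments in CX45 and 4.97 in 8C. The gene fell in 8C against 2C (log2 fold change -2.84 ± 0.71, adjusted p = 0.0359) and in CX45 against CX22 (-2.86 ± 0.58, adjusted p = 0.0206). Its CX45 value against 2C, -2.52 ± 0.71, did not pass (adjusted p = 0.0554).

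Nlrp14 kept the largest share of its 2C level in both low groups, 18.9% in CX45 and 7.91% in 8C. Its levels were 11.8 and 17.3 FPKM in CX45, 48.2 and 84.9 FPKM in CX22, 7.55 and 4.61 FPKM in 8C, and 75.0 and 78.7 FPKM in 2C. In 8C it was the most abundant of the 7 genes, as Nlrp4f was in 2C. It was also the only one whose CX22 mean was below its 2C mean, at 86.6% of it, and the CX22 libraries lay on either side of the 2C values. The log2 fold change was -3.49 ± 0.52 in 8C against 2C (adjusted p = 0.01), -2.35 ± 0.52 in CX45 against 2C (adjusted p = 0.0329) and -2.09 ± 0.43 in CX45 against CX22 (adjusted p = 0.0216).

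In order of mean level in 2C the genes were Nlrp4f, Nlrp9a, Nlrp14, Nlrp4a, Nlrp4b, Nlrp9b and Nlrp2. Nlrp14 averaged 6.08 ± 2.08 FPKM and Nlrp9a 0.708 ± 0.307 FPKM in 8C (SD, n = 2), whereas in 2C their libraries overlapped, at means of 76.9 and 77.4 FPKM. In CX45 the mean of Nlrp4f, 15.8 FPKM, and that of Nlrp14, 14.6 ± 3.85 FPKM, stood above all others, and their libraries overlapped. The next in CX45, Nlrp9a, averaged 2.74 ± 1.41 FPKM.

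All 7 genes fell in 8C against 2C, where 20.7% of the 11873 genes tested fell and 37.1% were called in either direction. Calls required an adjusted p under 0.05, by the Benjamini-Hochberg method over all genes tested, and a log2 fold change of 1 or more in size. The 6 comparisons share libraries and are not independent of each other. The median log2 fold change was -3.63 over the 7 genes and -0.04 over all genes tested. In each of the 7, both 8C libraries were below both 2C libraries, which was so for 46.6% of all genes tested. The number called was 4 without 8C library 1, when Nlrp2, Nlrp4b and Nlrp9b were lost, and 2 without 8C library 2, when Nlrp4a and Nlrp9a were left. Over all genes tested, 4400 were called, and 1490 without 8C library 1 and 1417 without 8C library 2.

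CX22 against 2C gave no call among the 7 genes with limma, and none at an unadjusted p under 0.05, where 3.89% of all genes tested were called. The log2 fold changes lay between -0.26 ± 0.52 for Nlrp14 and 0.53 ± 0.57 for Nlrp4b. Group means in CX22 were 86.6% to 154% of those in 2C. Both CX22 libraries were above both 2C libraries in 3 of the 7 genes, Nlrp2, Nlrp4b and Nlrp9a, which was so for 21.2% of all genes. Library 2 of CX22 was above library 1 for 6 of the 7 genes, all but Nlrp2, with ratios of library 2 to library 1 between 0.812 and 3.44. With standard errors of 0.42 to 0.79, changes of 1 on the log2 scale and well above could have been missed for these genes in either direction. Adamts1, a marker of the cells around the egg, was not called at -1.64 ± 0.28 (limma adjusted p = 0.0561), with a smaller standard error.

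CX45 against CX22 gave 7 genes that fell, with 13.5% of all genes falling and 36.4% called. The log2 fold changes ran between -4.95 for Nlrp9a and -2.09 for Nlrp14, with a median of -2.86 where the median of all genes was 0.47. Each gene had both CX45 libraries below both CX22 libraries, a pattern seen in 23.5% of all genes. The count was 3 without either 8C library, which enters through the shared estimate of the spread. It was 4 without CX22 library 2, 2 without CX45 library 1 and 4 without CX45 library 2. Over all genes, 4326 were called, and 2532 to 2538 without an 8C library, 4360 without CX22 library 2, and 2451 and 2532 without CX45 library 1 or 2. Nlrp4a and Nlrp9a stayed called under every library left out and every other setting tried, with adjusted p of at most 0.0306 for each.

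CX22 against 8C gave 7 genes that were higher in CX22, by 3.18 ± 0.58 for Nlrp2 to 6.04 ± 0.45 for Nlrp9a on the log2 scale, with 19.9% of all genes higher and 41.3% called. Libraries did not overlap for any of the 7, as for 31.5% of all genes in that direction. Without 8C library 2 the count was 4, with Nlrp2, Nlrp9b and Nlrp14 lost, and 1871 of all genes were called in place of 4906.

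CX45 against 2C gave 5 genes that fell, Nlrp4a, Nlrp4b, Nlrp4f, Nlrp9a and Nlrp14, with 13.6% of all genes falling and 29.8% called. The median log2 fold change of the 7 was -2.52, and that of all genes 0.33. Both CX45 libraries were below both 2C libraries for all 7 genes, as for 38.3% of all genes. The count was 2 without either 8C library and without either CX45 library, 2 in a fit with the replicate number as a block, 2 without the low-value filter and 3 with a pseudocount of 0.1. Over all genes, 3536 were called, and 1526 and 1502 without 8C library 1 or 2, 1800 and 2082 without CX45 library 1 or 2, and 2663 with the block. Nlrp4a (-3.94 ± 0.42) and Nlrp9a (-4.44 ± 0.55) stayed called in every one of these fits, at adjusted p of at most 0.0356 and 0.0415.

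CX45 against 8C gave no call among the 7 genes with limma, where 0.665% of all genes tested were called. At an unadjusted p under 0.05 there were 3, Nlrp4b, Nlrp4f and Nlrp14. The fold changes were all above 0, between 0.32 ± 0.58 for Nlrp2 and 2.70 ± 0.62 for Nlrp4f (adjusted p = 0.12), with a median of 1.14 where the median of all genes was 0.31. Oosp1 was not called in this comparison even at 3.19 ± 0.36 (limma adjusted p = 0.0518). The standard errors of the 7 genes were 0.34 to 0.64, so the lack of calls does not show that CX45 and 8C were alike. Both CX45 libraries were above both 8C libraries in 6 of the 7, as for 40.4% of all genes. Group means in FPKM were 2.26-fold higher in CX45 for Nlrp2 and 2.39-fold for Nlrp14, and 10.5-fold for Nlrp4f and 15.5-fold for Nlrp9b, whose 8C mean was 0.0958 ± 0.136 FPKM. With the libraries rescaled by medians of ratios the median of all genes was at 0, and the fold changes ran between 0.15 for Nlrp2 and 2.21 for Nlrp4f. With quantile normalization that of Nlrp2 was -0.0042.

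Markers of other cells moved along with some of these contrasts. The 8 blood and immune markers summed to 301 and 368 FPKM in CX45, 33.7 and 91.0 FPKM in CX22, 13.3 and 32.0 FPKM in 8C, and 109 and 130 FPKM in 2C. Most of this was Hba-a1, an alpha globin gene, at 286 and 347 FPKM in CX45 and 10.3 and 28.7 FPKM in 8C. Ptprc, the pan-leukocyte marker CD45, did not exceed 0.0701 FPKM in any library, but other immune markers were present. Lyz2 had 9.61 and 7.45 FPKM in CX45, 10.2 and 11.8 FPKM in CX22, 0 in both 8C libraries, and 0 and 1.91 FPKM in 2C. Cd68 had 5.38 and 12.7 FPKM in CX45, 0 and 7.11 FPKM in CX22, 2.96 and 3.21 FPKM in 8C, and 3.17 and 3.16 FPKM in 2C. The 10 cumulus and granulosa cell markers, of the cells around the egg, summed to at most 9.51 FPKM in any library, with 0.687 and 0.0308 FPKM in 8C against 8.54 and 9.51 FPKM in 2C. The 8 sperm markers summed to 0 and 4.96 FPKM in CX45, 42.9 and 33.1 FPKM in CX22, 0 in both 8C libraries, and 19.6 and 18.7 FPKM in 2C, with Tnp2 and Smcp at 0 in all libraries. Most of that sum was Tnp1 in CX22 library 1, at 42.2 FPKM, and Prm2, a sperm protamine, in CX22 library 2 and in 2C. Markers of the 2-cell stage summed to 90.8 and 772 FPKM in CX45, 454 and 591 FPKM in CX22, 12.2 and 12.7 FPKM in 8C, and 394 and 382 FPKM in 2C. In CX45 library 2 most of this was Gm5662, at 483 FPKM, and Zfp352, at 179 FPKM, followed by Tdpoz4 at 73.7 FPKM and Zscan4d at 26.7 FPKM. Tdpoz4 did not run with the sum in the other groups, at 2.02 and 1.34 FPKM in CX22, 9.15 and 9.57 FPKM in 8C, and 0.972 and 0.699 FPKM in 2C. The part of these differences in the Nlrp levels was not tested.

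Whether the change of CX45 from CX22 differed from the change of 8C from 2C was tested as a difference of differences. None of the 7 genes was called, by limma and at an unadjusted p under 0.05 alike, with 3.6% of all genes called. The values were between -0.02 ± 0.91 for Nlrp2 and 2.44 ± 0.98 for Nlrp4f (adjusted p = 0.266).

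**Figure D2:**
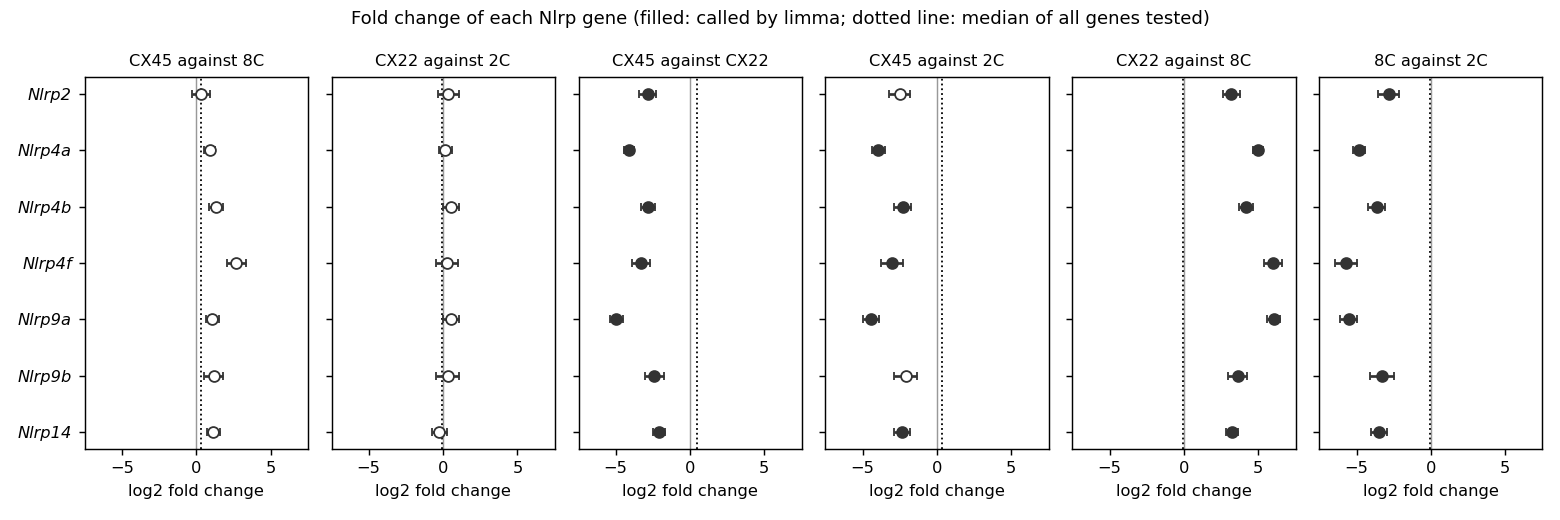
Log2 fold change of each Nlrp gene on the log2(FPKM + 1) scale in the 6 comparisons, with bars for the standard error, filled points for genes called by limma and a dotted line for the median of all genes tested. Open points fill the panels CX45 against 8C and CX22 against 2C, and all 7 points are filled in 3 of the other panels.

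6 of the 7 genes lie on chromosome 7, in mm9 as given by the authors' table. Nlrp4a at chr7:27220132-27261161 starts 31.4 kb after the end of Nlrp9c and ends 58.9 kb before Nlrp9a at chr7:27320042-27359165. The others are scattered, with Nlrp2 at chr7:5250149-5302637, Nlrp4b at chr7:11273142-11315516, Nlrp9b at chr7:20593372-20648287 and Nlrp14 at chr7:114310504-114341617. The 3 neighbours differed in level, with 240 and 239 FPKM for Nlrp9c in 2C, above Nlrp9a at 77.8 and 77 FPKM and Nlrp4a at 48.6 and 45.5 FPKM.

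Related genes such as these can exchange short reads. Of all stretches of 50 bases in a gene's transcripts, 7.13% for Nlrp4f, 6.44% for Nlrp9a, 6.22% for Nlrp9b, 3.02% for Nlrp4a and 0.83% for Nlrp2 also occurred in another gene, and none did for Nlrp4b and Nlrp14. For stretches of 100 bases the share was at most 1.36%. Nlrp4a and Nlrp4f were 83.6% identical in their longest reading frames, Nlrp4a and Nlrp4b 78.1%, and Nlrp4b and Nlrp4f 77.8%. Pairs from different subfamilies among the 7 genes were 58.1% to 63.1% identical. How reads that match several places were assigned is not given in the sources used here, so levels of the Nlrp9 genes and of Nlrp4f are less certain than those of Nlrp4b and Nlrp14.

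The split of a gene among its transcript entries was less stable than its sum. Nlrp4a has an entry that starts at position 27220132 and another that starts at 27220633, 501 bases downstream. In both 8C and both 2C libraries all of the gene's FPKM was on the entry with the downstream start. The entry with the upstream start held 36.2% and 100% of the gene's level in CX45 and 34% and 49.4% in CX22. Its level was 0.785 and 2.11 FPKM in CX45 and 14.8 and 31.3 FPKM in CX22, against 0 in all 8C and 2C libraries. With only the highest entry counted per gene, Nlrp4a was below 2C in CX22, by -0.62 on the log2 scale, where the sum gave 0.16 ± 0.42. The Nlrp4b entries start 28 bases apart, and the whole level was on the upstream one in CX45 library 2 and 8C library 2 and on the downstream one elsewhere. The 3 Nlrp9a entries share a locus, and the one that held 77.4% and 78.2% in 2C was at 0% and 80.5% in CX45. Cufflinks estimates such splits by sharing out the reads that match several entries, and no test was made on them.

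**Figure D3:**
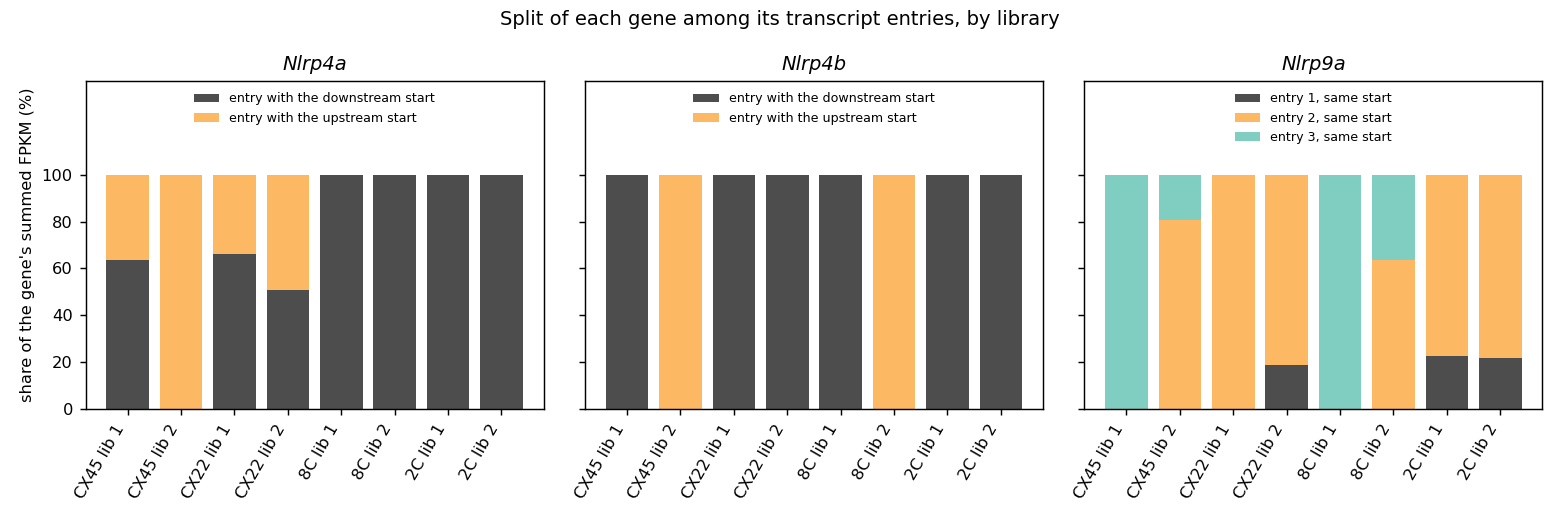
Share of each gene's summed FPKM on each of its transcript entries, in percent, for Nlrp4a, Nlrp4b and Nlrp9a in the 8 libraries, with CX45 at the left and 2C at the right. The entry of Nlrp4a with the upstream start appears in the CX45 and CX22 bars, at 34% to 100%, and in none of the 8C and 2C bars.

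Promoter windows of RefSeq, in build GRCm38.p6 and reaching 250 bases before to 50 after a start, were found for 6 of the 7 genes, all but Nlrp14, and gave 8 windows. The motif CANNTG, the E-box to which basic helix-loop-helix factors bind, was searched on both strands. So were CCAAT, the CAAT box, TAATTA and also TAATTG, which homeodomain factors bind, and TATAAA, the TATA box. E-boxes of the form CANNTG were in 7 of the 8 windows, against 72.3% of all 32851 windows, and CCAAT was in 5, against 37.4%. The 2 Nlrp4b windows overlap and share sites, so the 8 are not independent. By gene, CANNTG was in 5 of the 6 and CCAAT in 4. TAATTG was in 2, against 8.0%, TAATTA in 1, against 5.3%, and TATAAA in 1, against 13.6%. Shown are the 120 bases before the start for Nlrp4a, at its downstream start, and for Nlrp4b, at its upstream start. These windows were picked because they were the most alike. The Nlrp9 pair is shown because its windows were less alike. Capitals mark CANNTG, and the final capitals of Nlrp9b open a match that runs past its start.
Nlrp4a, chr7:26435494-26435613, plus strand: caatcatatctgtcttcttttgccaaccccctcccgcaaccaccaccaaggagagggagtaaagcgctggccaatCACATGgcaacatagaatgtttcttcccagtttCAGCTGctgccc
Nlrp4b, chr7:10687673-10687792, plus strand: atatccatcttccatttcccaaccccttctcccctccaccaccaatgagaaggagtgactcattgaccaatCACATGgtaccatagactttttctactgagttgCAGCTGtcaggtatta
Nlrp9a, chr7:26534903-26535022, plus strand: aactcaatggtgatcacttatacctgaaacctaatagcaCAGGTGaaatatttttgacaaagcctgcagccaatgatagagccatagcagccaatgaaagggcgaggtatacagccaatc
Nlrp9b, chr7:20007903-20008022, plus strand: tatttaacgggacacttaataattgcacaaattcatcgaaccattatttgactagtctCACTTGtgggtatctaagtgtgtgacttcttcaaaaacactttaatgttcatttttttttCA

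Aligned end to end with gaps allowed, the Nlrp4a and Nlrp4b windows had 85 identical bases of 120, or 70.8%. Their E-boxes, CACATG and CAGCTG, stand at -45 and -12 in Nlrp4a and at -49 and -16 in Nlrp4b, counted from the start. CCAAT stands at -50 in Nlrp4a, and at -79 and -54 in Nlrp4b. The Nlrp4b level was on the entry with the downstream start except in CX45 library 2 and 8C library 2. Counted from that start, the E-boxes of Nlrp4b stand at -77 and -44, and its window was 58.3% identical to that of Nlrp4a. The Nlrp9a and Nlrp9b windows, aligned in the same way, had 62 identical bases of 120, or 51.7%. Windows of members from different subfamilies had 44.2% to 55.8%, so the Nlrp9 windows were no more alike than those. The Nlrp9a and Nlrp9b reading frames were 83.8% identical, counted over the full length of the longer one. Nlrp9a holds CCAAT at -51, -30 and -6. A match is a description of the letters and not of a factor at work.

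Outside the family, the genes whose profiles over the 8 libraries lay closest to a member's were found by the root mean square distance between log2(FPKM + 1) values, each gene centred on its own mean. For Nlrp4a these were Accsl at 0.17 and Pakap at 0.18, and for Nlrp9a Scml2 at 0.27 and Krt12 at 0.30. For Nlrp4f they were Tesc at 0.29 and Mllt3 at 0.35, for Nlrp4b Fam107b at 0.18 and Antxr2 at 0.19, and for Nlrp9b Fyco1 at 0.18 and Bmp2k at 0.19. For Nlrp2 they were Trappc1 and Epn2, both at 0.19, and for Nlrp14 Dzip3 at 0.19 and Ssx2ip at 0.22. Each member was closer to these genes than to any other member. The genes outside were picked from a far larger pool, so this says nothing about likeness within the family. The nearest members to each other were Nlrp4b and Nlrp9b at 0.33.

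Of 25 other genes of the NLR class, which includes the NLRP family, 24 were in the table and 10 passed the low-value filter. In 8C against 2C 5 of the 10 fell and none rose, with a median of -1.88, where 20.7% of all genes tested fell. The 5 were Nlrp4e, Nlrp4g, Nlrp5, Nlrp9c and Naip1, the last a sensor of bacterial proteins in immune cells, and the same 5 fell in CX45 against 2C and in CX45 against CX22. Nlrp9c, the most abundant of them, had 11.9 and 13.6 FPKM in CX45, 198 and 383 FPKM in CX22, 2.48 and 1.69 FPKM in 8C, and 240 and 239 FPKM in 2C. Its fold change was -6.30 ± 0.48 in 8C against 2C (adjusted p = 0.00236). Nlrp4e fell by 6.64 ± 0.61 and Nlrp4g by 6.57 ± 0.59 on the log2 scale in 8C against 2C (adjusted p = 0.00342 and 0.00328). Of these 5, Nlrp4e shared 36.9% of its 50-base stretches with other genes, among them unnamed gene models.

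Nlrp12, which in mice is best known from myeloid cells, went the other way between the CX groups. It had 2.68 and 3.75 FPKM in CX45, 0 and 0.0954 FPKM in CX22, 6.44 and 2.03 FPKM in 8C, and 0.903 and 0.953 FPKM in 2C. It rose in CX45 against CX22, by 2.00 on the log2 scale (adjusted p = 0.0414). Nlrp3 did not exceed 0.24 FPKM in any library, and Nlrp10, Nlrp1b, Nlrp1c-ps and Naip6 were at 0 in all of them. Nlrc3, Nlrp4c, Nlrp5-ps and Ciita passed the filter and were not called in any comparison with 2C.

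The inflammasome list held 12 genes, of which 5 passed the filter. Casp1 and Mefv were at 0 in all libraries, and Pycard, the adaptor ASC, was above 0 only in CX45, at 0.0425 and 1.81 FPKM. Nek7, a kinase that binds NLRP3, was the only one called in 8C against 2C and fell by 3.39 ± 0.67 on the log2 scale (adjusted p = 0.0202). It had 0.0886 and 0.75 FPKM in CX45, 6.49 and 13.7 FPKM in CX22, 0.547 and 0 FPKM in 8C, and 12.8 and 11.4 FPKM in 2C.

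Of 6 genes of the subcortical maternal complex and its partners, all of which were tested, 3 fell in 8C against 2C and in CX45 against 2C and none rose. They were Nlrp5, also known as Mater, with a fold change of -3.37 ± 0.44 in 8C, Ooep with -4.26 ± 0.58 and Zbed3 with -7.81 ± 1.36. Nlrp5 is counted among the other NLR genes as well. Of all genes tested, 20.7% fell in 8C against 2C and 13.6% in CX45 against 2C. Tle6, Khdc3 and Padi6 were not called there. Khdc3, also known as Filia, had 20.3 and 38.7 FPKM in CX45, 15.0 and 10.1 FPKM in CX22, 28.8 and 30.2 FPKM in 8C, and 16.5 and 15.5 FPKM in 2C.

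Of the partners reported for mouse NLRP14, the importin gene Kpna2 and the mitochondrial calcium exchanger gene Slc8b1 rose and the chromatin factor gene Uhrf1 fell, in 8C against 2C and in CX45 against 2C alike. Uhrf1 had 3.47 and 3.82 FPKM in CX45, 24 and 20.3 FPKM in CX22, 1.58 and 2.75 FPKM in 8C, and 18.9 and 19.3 FPKM in 2C. Kpna2 had 353 and 548 FPKM in CX45, 128 and 127 FPKM in CX22, 346 and 470 FPKM in 8C, and 143 and 150 FPKM in 2C. The list has only these 3 genes, so its counts show no direction of its own.

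Among 9 transcription factors of the oocyte, 6 were tested and 3 fell in 8C against 2C and in CX45 against 2C. Lhx8, a LIM homeobox factor of young oocytes, fell by 3.71 ± 0.53 on the log2 scale in 8C against 2C. Obox5 fell by 8.11 ± 0.85, and the log2 fold change of Nr6a1, a germ cell nuclear receptor, was -3.04 ± 0.38. Figla was at 0 in all libraries. Among 17 other maternal transcripts tested, 12 fell in 8C against 2C and 10 in CX45 against 2C, and none rose. Of all genes tested, 20.7% and 13.6% fell in these comparisons. The 17 include the 6 oocyte markers tested above, so the 2 counts are not separate. One of the 17, Omt2a, was called in CX45 against 8C, with 579 and 808 FPKM in CX45 and 50.7 and 45.6 FPKM in 8C, a log2 fold change of 3.80 ± 0.26 (adjusted p = 0.0443). The median of these 17 genes in that comparison was 1.52, beside 1.14 for the 7 Nlrp genes and 0.31 for all genes tested.

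**Figure D4:**
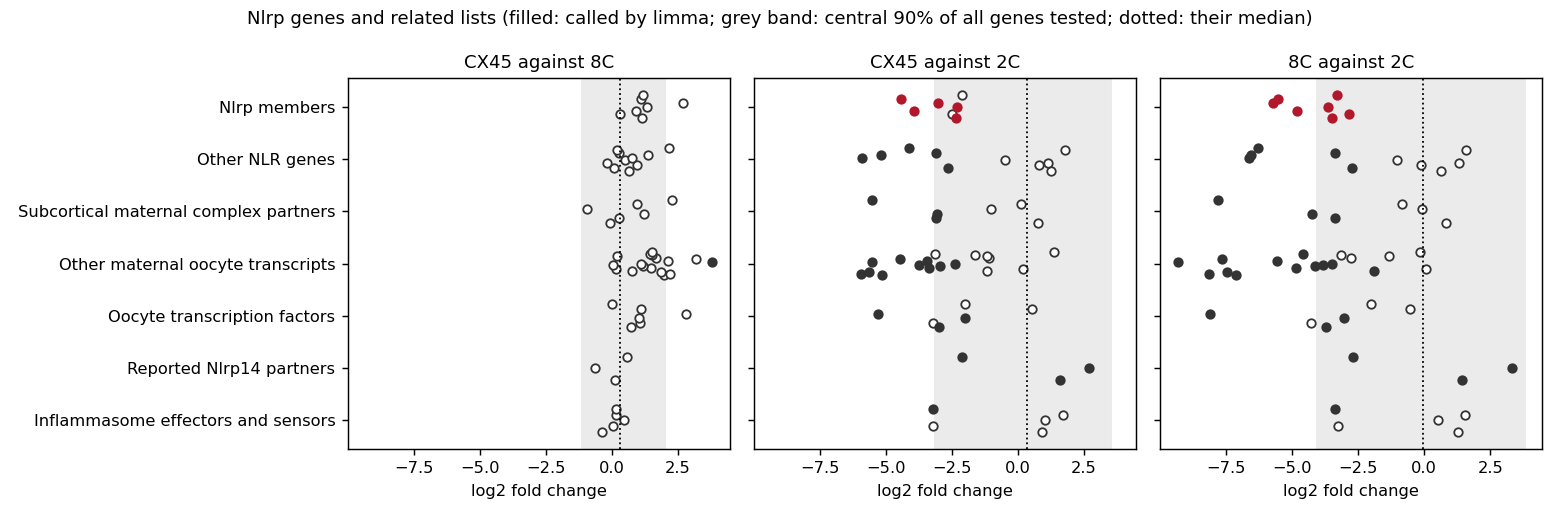
Log2 fold changes of the Nlrp genes and of related gene lists in 3 comparisons, 1 point per gene tested, filled where called by limma, with the central 90% of all genes tested as a grey band and their median as a dotted line. In 8C against 2C the Nlrp points lie between -5.72 and -2.84, and in CX45 against 8C between 0.32 and 2.70.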

How the data were processed

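The submitters' processing notes name HISAT2 4.8.2, Cufflinks 2.2.1 and build mm9. Settings and read length are not given in the sources. The authors deposited FPKM per transcript entry (41876 entries, 8 libraries). Here 41685 entries were matched to symbols through their RefSeq accessions and summed per gene, and 191 matched none. No counts were used. Values checked for depth were within 0.05 of a whole number of fragments in 63.2% to 67.2% of cases, too few for a count test, so depths and implied fragments are estimates. Tests were made with limma 3.58.1 (R 4.3.3), with trend moderation, on log2(FPKM + 1) for the 11873 genes that reached 1 FPKM in 2 libraries. The 4 groups entered 1 fit with 7 samples and 3 residual degrees of freedom, tests were two-sided, and p-values were Benjamini-Hochberg adjusted over all genes tested. The script was tested on simulated data. Coordinates are those of the table, counted from 1. Transcript sequences for shared stretches and reading frames came from GENCODE M21, promoters from RefSeq.

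The Nlrp genes and the lists were chosen with earlier results of these data known, and their counts are no independent support. All 7 Nlrp genes are named, as are the NLR genes past the filter and up to 4 genes per list with the smallest p in 8C against 2C. Nlrp3, Nlrp10, Nlrp1b, Nlrp1c-ps, Naip6, Casp1, Mefv, Pycard, Figla, Ptprc, Tle6, Padi6, Tnp1, Tnp2, Smcp, Zp3, Gm5662 and Tdpoz4 lie outside that rule and were named after their values were seen. Alternatives were another pseudocount, no filter, other scalings, the highest entry per gene, all libraries separate, moderation without a trend, a replicate block and leaving out each library.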

Additional observations from a re-analysis of the deposited data

How the results depend on the processing

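The number of Nlrp genes called kept to within 1.5 times of that reported under most alternatives. For CX45 against 2C it was 5, and 3 with a pseudocount of 0.1, 2 without the filter on low values and 2 with a replicate block. For CX45 against 8C it was 0, and 1, Nlrp4f, with all 8 libraries separate. With 1 library left out the count was 2 to 7 for 8C against 2C, 4 to 7 for CX22 against 8C, 2 to 7 for CX45 against CX22, 2 to 6 for CX45 against 2C, and 0 throughout for CX45 against 8C, CX22 against 2C and the difference of differences. A group left with 1 library was assumed to vary like the others. The labels do not say that replicate numbers pair samples. Same-numbered libraries showed little shared deviation, with correlations of -0.001 to 0.105, which does not show that they were handled apart. With a replicate block the counts were 6 for 8C against 2C, 7 for CX22 against 8C 6 for CX45 against CX22 and 2 for CX45 against 2C, and 0 for CX45 against 8C, CX22 against 2C and the difference of differences.

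No value that had been called changed sign. In CX45 against 8C the sign turned for Nlrp2 with quantile normalization (-0.0042) and for Nlrp4a with the highest entry per gene (-0.13), and with 1 library left out Nlrp2 was between -0.30 and 0.95. In CX22 against 2C it turned for Nlrp4a with the highest entry (-0.62). With 1 library left out, the CX22 against 2C value was -0.11 to 0.42 for Nlrp4a, -0.38 to 0.91 for Nlrp4f, -0.52 to 1.12 for Nlrp9b and -0.66 to 0.14 for Nlrp14, each set by the CX22 library left out. The difference of differences turned for Nlrp4b with the highest entry (-0.03) and for Nlrp2 with a pseudocount of 0.1 (0.23), and was -0.64 to 0.61 for Nlrp2 with 1 library left out. The cause was not tested. Rescaling by medians of ratios moved the median of all genes in CX45 against CX22 to 0.22, where 0.47 is reported, and that in CX45 against 2C to 0.08, where 0.33 is reported. Higher calls made up 53.6% and 44.3% of all calls then, against 63.1% and 54.4%. Over all genes, 79 were called in CX45 against 8C, and between 0 and 1037 under the alternatives. For 462 in CX22 against 2C the range was 60 to 1616, and for 428 in the difference of differences 0 to 1781. Levels under about 0.1 FPKM rest on few fragments and set the limit for Nlrp2 and Nlrp9b in 8C.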
